A study of Mus musculus with 31 samples.

Results

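Astrocytes answer injury, protein aggregates and inflammation with a program called reactive gliosis, and 10 genes of that program or of resting astrocyte function were followed here in the hippocampus of tau transgenic mice. The genes were *Gfap*, *Vim*, *Serpina3n*, *Cd44*, *Osmr*, *Aqp4*, *Aldh1l1*, *Slc1a2*, *Slc1a3* and *Lcn2*. They were chosen by name, with earlier results of these data known. Each was matched by its Ensembl identifier to 1 row of a hippocampal table of 48795 genes, in which 16453 genes passed the filter on low counts and could be tested. All 10 were among those tested. Counts came from 13 mice, all 8 to 9 months old by their labels. The non-transgenic (Ntg) group held 7 of them (3 female, 4 male) and the *P301S* group 6 (3 female, 3 male). The *P301S* mice carry a transgene for human tau with the *P301S* mutation, and the *Cgas* genotype of both groups was not given for this experiment in the sources used here. The same genes were read in 18 libraries of primary microglia, grown from newborn cortex through a mixed glial culture, from *Cgas*+/+ or *Cgas*-/- mice, and given vehicle, DNA from herring testis (HT-DNA) or tau fibrils, with 3 libraries in each of the 6 groups. A legend of the paper counts 3 biologically independent samples for genes of this experiment, without saying what made them independent. Nothing in the labels ties these libraries to separate litters, so p-values in microglia measure only the spread between libraries, which may be technical.

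In reactive gliosis, astrocytes enlarge their cytoskeleton of intermediate filaments, which are built from GFAP and vimentin, and secrete acute-phase proteins such as SERPINA3N and lipocalin 2. Cytokines of the interleukin 6 family, which signal through the shared receptor gp130 and the transcription factor STAT3, are known drivers of this state, and OSMR is the receptor subunit that binds oncostatin M. Resting astrocytes clear glutamate from synapses with the transporters GLT-1 (*Slc1a2*) and GLAST (*Slc1a3*), line vessels with the water channel aquaporin 4 (*Aqp4*) and express the folate enzyme ALDH1L1, a general astrocyte marker. Whole tissue was measured, so a change in the number of astrocytes and a change in RNA per astrocyte cannot be told apart.

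Total counts were 25953296 to 35779977 per hippocampus and 17037459 to 25174764 per microglial library. *Mapt*, the gene of tau, averaged 572 ± 46.9 normalized CPM in Ntg mice and 997 ± 88.5 in *P301S* mice (SD, n = 7 and n = 6; CPM are read counts rescaled to a common library size), and the groups did not overlap. Neurons, oligodendrocytes and astrocytes were all represented in every hippocampus by their markers, with summed CPM of 9307 to 14305 for 7 neuronal genes, 3794 to 9009 for 6 oligodendrocyte genes and 6733 to 9408 for 22 homeostatic astrocyte genes other than the members.

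The comparison of *P301S* with Ntg hippocampi asks which transcripts differ in tauopathy. *Gfap*, *Osmr*, *Vim* and *Serpina3n* rose, between 3.39-fold and 4.65-fold by their group means, and no member fell. These 4 of 10 members were called by edgeR's quasi-likelihood test (log2 fold change over 0.5 at an adjusted p under 0.05), against 1.32% of all tested genes called higher and 0.0365% called lower. Since the members were chosen with earlier results known, this comparison with all genes is not independent of the data. Not one of the members was lower in *P301S* at an unadjusted p under 0.05 (0 by edgeR), and DESeq2 also called 0 lower. All 10 log2 fold changes were above 0, with a median of 1.59, beside a median of 0.00 and 50.4% above 0 over all tested genes. *Lcn2*, 1 of the 10, passed the filter through the *P301S* mice and gives no support to this count or median. In none of the 10 was every *P301S* mouse above every Ntg mouse (0 of 10), a pattern found in 0.438% of tested genes.

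**Figure D1:**
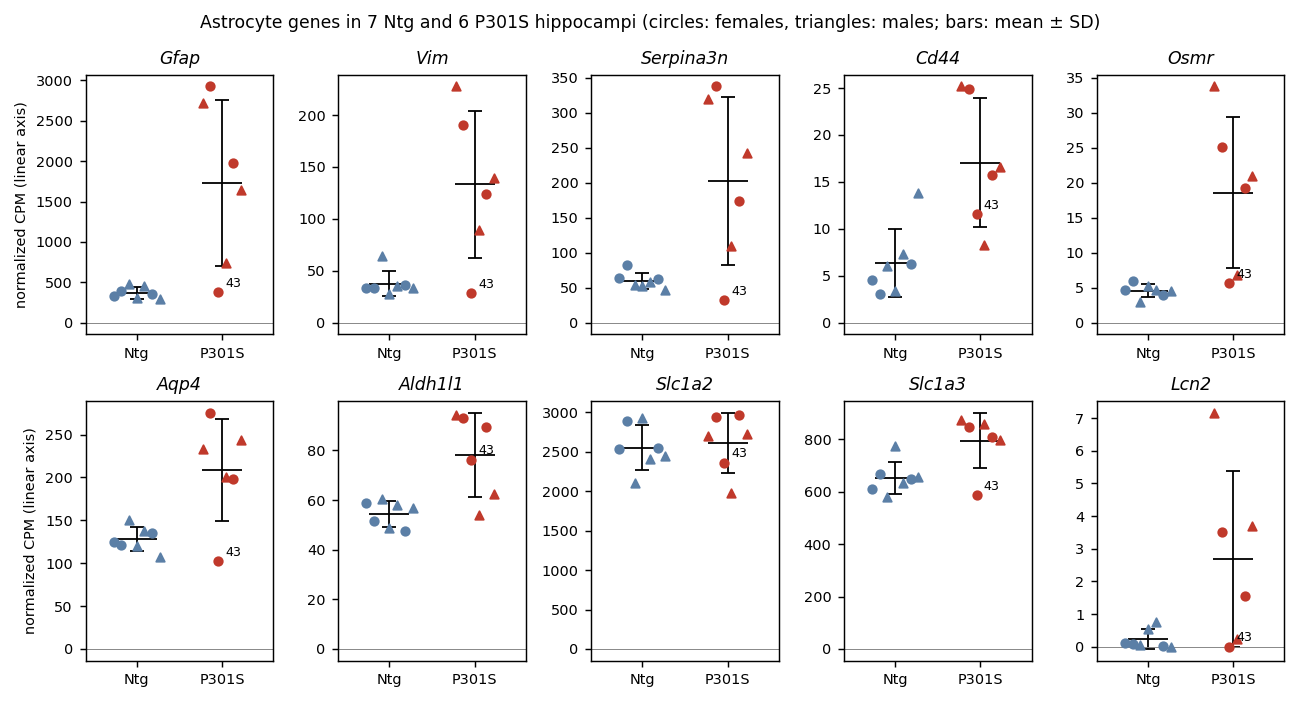
Normalized CPM of the 10 genes (vertical axes, linear, each gene on its own scale) in 7 Ntg and 6 P301S hippocampi, 1 point per mouse, with bars for the mean ± SD. In the P301S group the number 43 marks mouse 43, which lay within or below the Ntg range for every gene but Aldh1l1.

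Promoter sequences of 9 members were taken from RefSeq (GRCm38.p6), as 300 bases that span 250 before to 50 after the start site. They were searched on both strands for TTCNNNGAA, the palindrome bound by STAT factors, for GAAANNGAA, the core of the interferon-stimulated response element, and for TGANTCA, the site of AP-1. Of 32851 promoters of that length, 8.3% held the first, 8.56% the second and 7.81% the third. The STAT letters were found in 2 of the 9, *Gfap* and *Slc1a3*, the AP-1 letters in 1, *Osmr*, and the interferon element in none (0 of 9), while 6 held no match. The 3 promoters with a match are shown 5′ to 3′ on the gene's strand, with the matched letters in capitals, because they set a called filament gene and a called receptor gene beside a transporter gene that was not called. In *Gfap* (chr11:102897151-102897450, minus strand) the match begins at base -2 from the start site, in *Osmr* (chr15:6874264-6874563, minus strand) at base 4 after it, and in *Slc1a3* (chr15:8710758-8711057, minus strand) at base -96.
Gfap: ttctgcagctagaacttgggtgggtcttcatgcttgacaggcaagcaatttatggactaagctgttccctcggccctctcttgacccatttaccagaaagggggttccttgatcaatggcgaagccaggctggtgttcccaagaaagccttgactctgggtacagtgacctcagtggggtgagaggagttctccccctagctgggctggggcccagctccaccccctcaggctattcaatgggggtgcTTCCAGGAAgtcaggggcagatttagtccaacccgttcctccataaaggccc
Osmr: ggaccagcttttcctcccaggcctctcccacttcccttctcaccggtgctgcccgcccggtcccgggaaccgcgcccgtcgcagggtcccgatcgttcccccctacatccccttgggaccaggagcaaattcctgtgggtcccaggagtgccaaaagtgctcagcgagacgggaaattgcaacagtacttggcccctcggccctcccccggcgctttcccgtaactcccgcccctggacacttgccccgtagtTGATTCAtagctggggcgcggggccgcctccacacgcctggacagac
Slc1a3: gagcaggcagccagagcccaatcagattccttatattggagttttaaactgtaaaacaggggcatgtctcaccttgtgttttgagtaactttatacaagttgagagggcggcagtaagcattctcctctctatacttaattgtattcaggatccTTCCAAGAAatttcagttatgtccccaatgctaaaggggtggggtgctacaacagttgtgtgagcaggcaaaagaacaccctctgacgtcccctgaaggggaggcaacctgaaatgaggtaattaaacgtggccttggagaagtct
A match describes the letters in these windows only, and no binding was measured.

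GFAP is the defining intermediate filament protein of astrocytes. Its gene (chr11:102887336-102900912, minus strand, GRCm38) had 287 to 481 CPM in Ntg mice, with a median of 358. In *P301S* mice the values were 2722 in mouse 29, 2927 in mouse 36, 379 in mouse 43, 740.0 in mouse 63, 1972 in mouse 65 and 1648 in mouse 77. Thus 5 of 6 *P301S* mice were above every Ntg mouse, and mouse 43 sat inside the Ntg range. The mean was 372 ± 73.7 CPM in Ntg mice, against 1731 ± 1028 CPM in *P301S* mice (SD, n = 7 and n = 6), a log2 fold change of 2.22 with a standard error of 0.37 and an adjusted p of 0.0206. The spread was wider in the *P301S* group, whose highest value was 7.71 times its lowest, against 1.68 times in Ntg mice.

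Vimentin forms filaments together with GFAP in reactive astrocytes and is also made by endothelial cells, fibroblasts and microglia. *Vim* (chr2:13573927-13582826, plus strand) ranged from 27.9 to 64.1 CPM in Ntg mice, with a median of 33.5, and from 28.6 to 228 CPM in *P301S* mice, with a median of 131. Again 5 of 6 *P301S* mice exceeded every Ntg mouse and mouse 43 did not. The log2 fold change was 1.82 ± 0.35 (SE), with an adjusted p of 0.0303.

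*Serpina3n* (chr12:104406729-104414329, plus strand) encodes a secreted inhibitor of serine proteases and is among the classic markers of reactive astrocytes. Its level ran from 46.2 to 81.9 CPM in Ntg mice (median 57.8) and from 31.8 to 338 CPM in *P301S* mice (median 208). Mouse 43 had the lowest value of all 13 mice, below every Ntg mouse, while the other 5 *P301S* mice were above every Ntg mouse. The difference was 1.76 ± 0.38 on the log2 scale (adjusted p = 0.0388). *Serpina3n* lies in a cluster of near-identical *Serpina3* genes, so reads shared between copies make its count uncertain. Of the 10 other family members listed, only *Serpina3g* passed the filter, with 1.81 ± 1.13 CPM in Ntg mice, against 1.22 ± 0.86 CPM in *P301S* mice (SD, n = 7 and n = 6) (adjusted p = 0.684).

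*Osmr* (chr15:6813577-6874969, minus strand) was measured at 3.01 to 6.01 CPM in Ntg mice, with a median of 4.59. *P301S* mice had 5.65 to 33.7 CPM, with a median of 20.1. Mouse 43 was the only *P301S* mouse within the Ntg range, and mouse 63 stood just above it at 6.79 CPM. The log2 fold change was 2.02 ± 0.35 (SE, adjusted p = 0.0259).

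CD44 is a surface receptor for hyaluronan and osteopontin that reactive astrocytes, and also microglia and infiltrating leukocytes, can carry. *Cd44* (chr2:102811141-102901665, minus strand) had 3.03 to 13.8 CPM in Ntg mice (median 6.08) and 8.24 to 25.2 CPM in *P301S* mice (median 16.2). Ntg mouse 71, at 13.8 CPM, was above *P301S* mice 43 and 63, and the other 4 *P301S* mice were above every Ntg mouse. The log2 fold change of 1.43 ± 0.34 (SE) had an adjusted p of 0.0527 and missed the threshold. *Cd44* ends 20356 bases from the end of *Slc1a2*, which runs toward it on the other strand, and the 2 genes do not overlap.

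Lipocalin 2 is an iron-siderophore carrier that reactive astrocytes secrete and that neutrophils store in granules. *Lcn2* (chr2:32384633-32388252, minus strand) was close to the detection limit in most Ntg mice, with counts of 3, 3, 2, 17, 22, 1 and 0 in mice 35, 46, 55, 61, 62, 68 and 71. Counts in *P301S* mice 29, 36, 43, 63, 65 and 77 were 217, 102, 0, 7, 41 and 129. The groups therefore overlapped, since mice 43 and 63 had fewer reads than Ntg mice 61 and 62. The mean was 0.23 ± 0.30 CPM (SD, n = 7) against 2.69 ± 2.70 CPM (SD, n = 6), and the fitted log2 fold change of 3.52 ± 0.96 (SE) did not pass (adjusted p = 0.0784). The gene passed the filter through the *P301S* mice, which bears on any count that includes it. None of 8 neutrophil genes passed the filter, and their summed level was 0.12 to 1.65 CPM in Ntg and 0.18 to 1.45 CPM in *P301S* mice.

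Among genes of resting astrocytes, *Aqp4* (chr18:15389496-15410982, minus strand) had 108 to 150.1 CPM in Ntg mice, with a median of 124, and 102 to 276 CPM in *P301S* mice, with a median of 217. Mouse 43 was lowest of all 13 mice and the other 5 *P301S* mice were above every Ntg mouse. The log2 fold change was 0.71 ± 0.17 (SE, adjusted p = 0.0523). *Aldh1l1* (chr6:90486427-90600203, plus strand) had 47.7 to 60.6 CPM in Ntg (median 57.0) and 54.2 to 94.4 CPM in *P301S* mice (median 82.8), a log2 fold change of 0.52 ± 0.12 (SE, adjusted p = 0.0521). Here mouse 63 lay within the Ntg range and mouse 43, at 76.2 CPM, was above it. Both genes missed the threshold of 0.05 by a small margin, as did *Cd44*.

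Neither glutamate transporter passed the test. *Slc1a3* (chr15:8634124-8710764, minus strand) had 581 to 773 CPM in Ntg mice (median 650.0) and 586 to 872 CPM in *P301S* mice (median 828). Mouse 43 was again the low *P301S* mouse, and the other 5 were above every Ntg mouse. Its log2 fold change was 0.28 ± 0.09 (SE, adjusted p = 0.141). *Slc1a2* (chr2:102658659-102790784, plus strand) had 2108 to 2922 CPM in Ntg (median 2530.2) and 1971 to 2966 CPM in *P301S* mice (median 2717), so the ranges overlapped almost entirely. Its log2 fold change was 0.03 ± 0.11 (SE, adjusted p = 0.924), and its sign turned under several alternative settings.

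**Figure D2:**
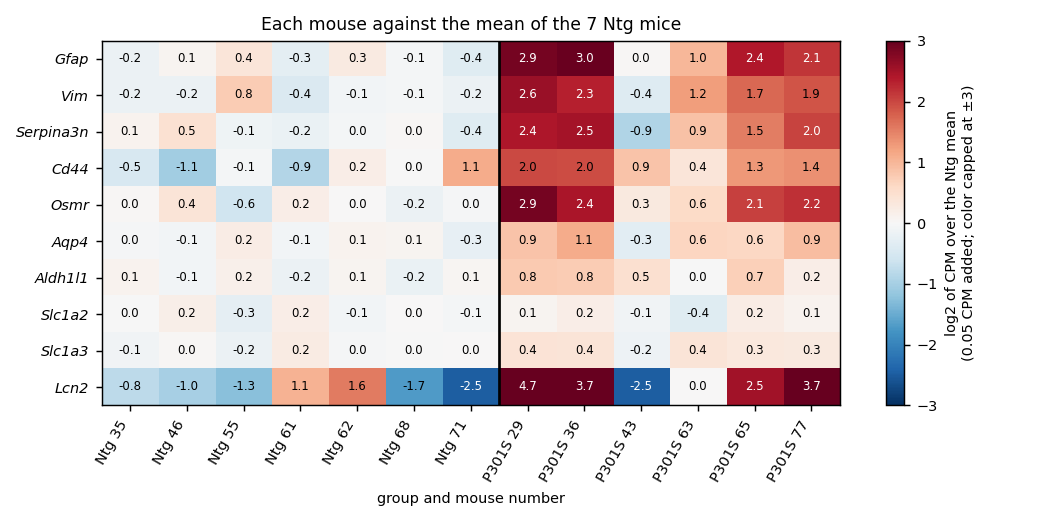
Log2 ratio of each mouse's CPM to the mean of the 7 Ntg mice (0.05 CPM added to both), with genes as rows and mice as columns, Ntg left and P301S right of the line. P301S mice 29, 36, 65 and 77 were above the Ntg mean in all 10 genes, whereas mouse 43 was near or below it in most.

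The *P301S* mice were not alike. Mice 36 and 65 exceeded every Ntg mouse in 10 of 10 members, and mice 29 and 77 in 9 of 10, with *Slc1a2* as the exception. Mouse 63 did so in 6 of 10, leaving out *Cd44*, *Aldh1l1*, *Slc1a2* and *Lcn2*. Mouse 43 did so in 1 of 10, *Aldh1l1*. Over all tested genes the share above every Ntg mouse was between 19.0% (mouse 63) and 24.7% (mouse 65), and it was 19.4% in mouse 43, a share close to those of the other *P301S* mice. *Mapt* in mouse 43 was 970.2 CPM, within the *P301S* range of 858 to 1125, and so the transgene readout matched its label.

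Calls depended on which mice entered the fit. With mouse 43 or mouse 63 left out, 8 members were called higher, all but *Slc1a2* and *Slc1a3*. By edgeR 0 of 10 were called, with 8 or 9 at an unadjusted p under 0.05, when Ntg mouse 35, 46, 61 or 68, or *P301S* mouse 29, 36 or 65, was left out, and 1 when Ntg mouse 62 or 71 was left out. The count was 3 without Ntg mouse 55, against 1.11% of all tested genes, and 5 without *P301S* mouse 77, against 1.72%. The Wald test of DESeq2 called 8 on all mice, against 3.3% of all genes it tested. *Lcn2*, which passed the filter through the *P301S* mice, was among the 8 in each fit that called 8 and gives no support. Calls over all genes moved in step, with 3.12% to 3.66% called higher in the fits that called 8 members. The share was 0.128% to 0.147% in the fits that called 1 member and 0.0854% to 0.145% in those that called 0. The counts at an unadjusted p stand without the share of all tested genes at that p, so they show no excess. Estimates moved less than calls did. For *Gfap* the log2 fold change stayed between 2.004 and 2.43 over the 13 fits, with adjusted p-values from 0.000472 to 0.0675, and for *Serpina3n* it stayed between 1.55 and 1.98, with adjusted p-values from 0.000671 to 0.113.

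**Figure D3:**
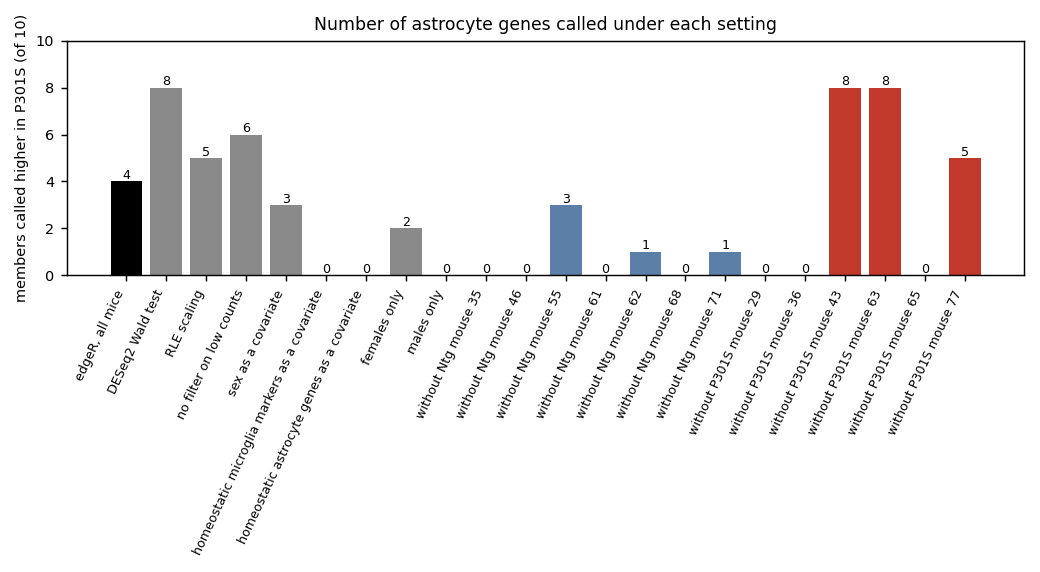
Number of the 10 genes called higher in P301S hippocampi (vertical axis) under each setting, with black for edgeR on all mice, gray for other tests, covariates or one sex, blue for fits without 1 Ntg mouse and red for fits without 1 P301S mouse. The count was 4 with all mice and ranged from 0 to 8.

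Markers of other cells moved with these genes. The summed level of 11 disease-associated microglial genes was 285 to 363 CPM in Ntg and 313 to 1190.2 CPM in *P301S* mice, at 313 in mouse 43 and 375 in mouse 63, and 8 of the 11 genes were called higher, with a median log2 fold change of 1.90. Of those 8, *Itgax*, *Cst7* and *Clec7a* passed the filter only with the *P301S* mice, so neither the count of 8 nor the median of 1.90 gives support. Homeostatic microglial markers summed to 337 to 420 CPM in Ntg and 336 to 727 CPM in *P301S* mice, with 0 of 7 called by edgeR and 3 by DESeq2, the same number as had an unadjusted p under 0.05. When the mean of those homeostatic microglial markers was added to the fit as a covariate, the log2 fold change of *Gfap* was 1.23 ± 0.24 (SE, adjusted p = 0.0927), that of *Vim* 1.14 (adjusted p = 0.285), that of *Serpina3n* 0.84 (adjusted p = 0.377) and that of *Osmr* 1.14 (adjusted p = 0.112), and 0 of 10 members were called, with 7 at an unadjusted p under 0.05. Of all tested genes 0.128% (21) were called higher in that fit. With the mean of the homeostatic astrocyte genes as the covariate, *Gfap* stood at 1.86 ± 0.39 (SE, adjusted p = 0.167) and again 0 members were called, with 9 at an unadjusted p under 0.05, against 0.0425% (7) of all tested genes called higher. Calls were thus lost over all genes with either covariate and not in the members alone. The counts of 7 and 9 at an unadjusted p stand without the share of all tested genes at that p, so they show no excess. The part that other cells had in the differences was not tested.

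Each sex was also fitted alone. In females the log2 fold change of *Gfap* was 2.29 ± 0.61 (SE, adjusted p = 0.0636) and in males 2.14 ± 0.38 (SE, adjusted p = 0.173). *Cd44* at 1.92 and *Aldh1l1* at 0.71 passed in females alone, which made 2 members called there and 0 in males, although 8 members had an unadjusted p under 0.05 in males. Of all tested genes 1.64% (269) were called higher in females and 0.00596% (1 gene) in males, so the loss of calls in males was general. The count of 8 stands without the share of all tested genes at an unadjusted p under 0.05, so it shows no excess. A test of the genotype effect in males minus that in females passed for 0 of 10 members by edgeR, with adjusted p-values from 0.337 to 0.935 and 0 members at an unadjusted p under 0.05. The interaction was called for 0% of all tested genes by edgeR, although 3897 genes had an unadjusted p under 0.05 and DESeq2 called 1092, of which 0 were members.

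Other genes of the reactive program were read from lists. Of 7 further pan-reactive genes, which are induced in astrocytes by several kinds of injury, 5 were tested and 3 were called higher, with a median log2 fold change of 1.61. *Cxcl10*, a chemokine that draws T cells, had 0.27 ± 0.13 CPM in Ntg mice, against 7.18 ± 6.42 CPM in *P301S* mice (SD, n = 7 and n = 6), a log2 fold change of 4.72 ± 0.72 (SE, adjusted p = 0.0151). *Cxcl10* passed the filter through the *P301S* mice, with 2 of 7 Ntg and 6 of 6 *P301S* mice at its level of 0.351 CPM. It thus had to differ, and its call, the count of 3 and the median of 1.61 give no support. *S1pr3*, a receptor for sphingosine 1-phosphate, rose by 1.61 ± 0.28 (SE, adjusted p = 0.0259) on the log2 scale and *Aspg* by 2.06 ± 0.36 (SE, adjusted p = 0.0259). For *S1pr3* every *P301S* mouse was above every Ntg mouse, mouse 43 included.

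Genes known from neuroinflammatory reactive astrocytes were called higher in 5 of 11 tested, with a median log2 fold change of 1.58. The class I antigen *H2-D1* went from 21.98 ± 4.96 CPM (SD, n = 7) to 137 ± 77.7 CPM (SD, n = 6), a log2 fold change of 2.63 ± 0.31 (SE, adjusted p = 0.00216), although class I genes are near-identical copies among which reads can be split. *Ggta1* and *Gbp2*, which encode a galactosyltransferase and an interferon-induced GTPase, rose by 1.70 and 1.67 on the log2 scale (adjusted p = 0.0303 and 0.0387), and the class I gene *H2-T23* by 1.58 (adjusted p = 0.0326). Mouse 43 was not alike in these genes. It had 46.6 CPM of *H2-D1* and 10.4 CPM of *H2-T23*, above the highest Ntg values of 31.4 and 8.65 CPM, but 4.07 CPM of *Ggta1* and 2.80 CPM of *Gbp2*, beside Ntg means of 4.08 ± 0.68 and 3.94 ± 1.08 CPM (SD, n = 7). Several of these genes are also interferon-induced in microglia. Genes known from ischaemic reactive astrocytes were called in 1 of 10 tested, with a median of 0.38, and the called gene was *Cd14*, a coreceptor for lipopolysaccharide, at 1.73 ± 0.34 (SE, adjusted p = 0.0303). In that list *Clcf1* and *Ptx3* passed the filter only with the *P301S* mice, and 0 of these were called. The median of 0.38 and the count of 10 therefore give no support.

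On the gp130 and STAT3 route, 15 of 18 genes were tested and 2 were called higher. *Socs3*, a feedback inhibitor that STAT3 induces, had 1.27 ± 0.34 CPM in Ntg mice, against 4.84 ± 2.28 CPM in *P301S* mice (SD, n = 7 and n = 6), a log2 fold change of 1.93 ± 0.31 (SE, adjusted p = 0.0169). *Stat3* itself rose by 0.52 ± 0.11 (SE, adjusted p = 0.0384). The ligand genes *Osm*, *Il6* and *Cntf* did not pass the filter on low counts and were not tested. The ligand genes *Lif*, *Il11*, *Clcf1* and *Ctf1* were tested and not called. Of the 15 genes 5 had an unadjusted p under 0.05, and their median log2 fold change was 0.19 over all 15. *Clcf1* and *Il11* passed the filter only with the *P301S* mice, so that median gives no support. The STAT letters stood in the promoters of *Gfap* and *Slc1a3*, whose log2 fold changes were 2.22 and 0.28.

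**Figure D4:**
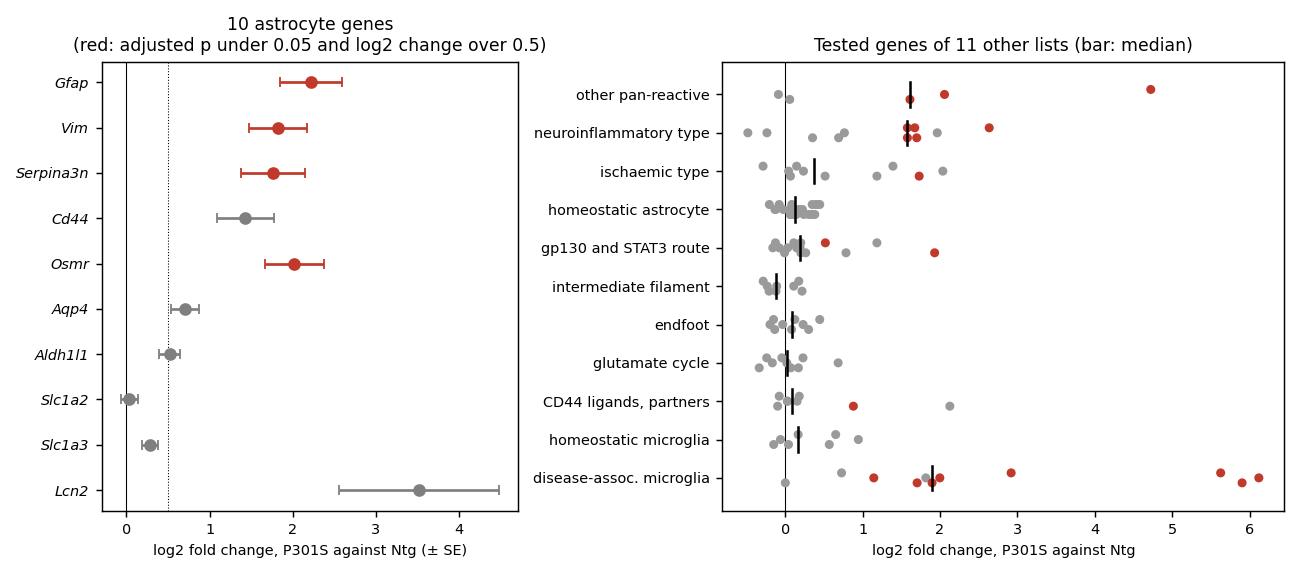
Log2 fold changes of P301S against Ntg hippocampi. Left, the 10 genes with their standard errors, where the dotted line marks 0.5 and red marks Gfap, Vim, Serpina3n and Osmr, the 4 called genes. Right, the tested genes of 11 further lists, 1 point per gene, red where called, with a bar at each list's median, highest for the disease-associated microglial genes at 1.90. In that list 3 genes passed the filter only with the P301S mice, so its median gives no support. The same holds for the other pan-reactive, ischaemic and gp130 lists, with 1, 2 and 2 such genes.

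Homeostatic astrocyte genes gave no calls. Of 22 such genes 0 were called by edgeR and 0 by DESeq2, 9 had an unadjusted p under 0.05, 17 had a log2 fold change above 0, and the median was 0.13. Glutamine synthetase (*Glul*) had 1620.2 ± 79.7 CPM in Ntg mice, against 1704 ± 258 CPM in *P301S* mice (SD, n = 7 and n = 6) (adjusted p = 0.771). Of 9 genes of the glutamate cycle, *Glul* among them, 0 were called by either tool and 3 had an unadjusted p under 0.05, with a median of 0.02. The same counts held for 9 genes of the aquaporin 4 anchor and the endfoot, with a median of 0.08. Among the latter, the potassium channel gene *Kcnj10* had a log2 fold change of 0.30 ± 0.12 (SE, adjusted p = 0.206) and *Mlc1* one of 0.45 ± 0.12 (SE, adjusted p = 0.0837). Of 8 further intermediate filament genes and linkers, 0 were called by either tool, 0 had an unadjusted p under 0.05 and the median was -0.11, and *Plec*, a linker of filaments, had a log2 fold change of -0.12 (adjusted p = 0.656).

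Among partners of the other members, edgeR called 1 gene and DESeq2 called 2, in each case partners of CD44. Of 8 tested ligands and partners of CD44, *Msn*, which ties CD44 to actin, rose from 32.5 ± 2.68 CPM (SD, n = 7) to 59.8 ± 19.4 CPM (SD, n = 6), at 0.88 ± 0.18 on the log2 scale (SE, adjusted p = 0.0328). The largest log2 fold change of the 8 was that of *Spp1*, the gene of osteopontin, named here after its value was seen. It had 5.25 ± 4.49 CPM in Ntg and 22.9 ± 19.4 CPM in *P301S* mice (SD, n = 7 and n = 6), at 2.13 ± 0.66 on the log2 scale (SE), and did not pass by edgeR (adjusted p = 0.116) but passed by DESeq2 (adjusted p = 0.0438). The relatives of *Msn*, *Rdx* and *Ezr*, had log2 fold changes of 0.03 and 0.18 (adjusted p = 0.887 and 0.679). The lipocalin receptor genes *Slc22a17* and *Lrp2* had log2 fold changes of -0.13 and -0.32 (adjusted p = 0.613 and 0.773), and neither passed by DESeq2 or at an unadjusted p of 0.05.

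Markers of cells outside these lists gave no calls by edgeR. Of 48 tested genes in 9 lists, 0 were called, 8 had an unadjusted p under 0.05, and DESeq2 called 1, an oligodendrocyte gene. Among the 8, 5 were oligodendrocyte genes, 2 neuronal genes and 1 a mural or fibroblast gene. All 6 oligodendrocyte genes had a log2 fold change above 0, the lowest 0.38. Of the 7 neuronal genes 2 had a log2 fold change above 0, and the lowest was that of *Camk2a*, at -0.45 ± 0.15 (SE, adjusted p = 0.132). The neuronal sum was 10883 to 14305 CPM in Ntg and 9307 to 12403 CPM in *P301S* mice. The lists were those for neurons (7 genes, median log2 fold change -0.03), oligodendrocytes (6 genes, 0.43), their precursors (4 genes, -0.06), endothelium (7 genes, -0.07), mural cells and fibroblasts (9 genes, -0.49), choroid plexus (6 genes, -0.19), ependyma (5 genes, 0.04), T cells (3 of 7 genes tested, 0.17) and blood (1 of 5 genes tested, 0.09). Some sums varied widely within both groups. The choroid plexus sum ran from 731 to 4997 CPM in Ntg and from 263 to 7803 CPM in *P301S* mice, with mouse 43 lowest, and the blood sum from 1.06 to 16.97 and from 0.568 to 25.5 CPM.

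Likeness between mice was measured as Pearson's r of log2 CPM over the 13 hippocampi after the group means were removed, as a description across libraries that share depth and dissection. The highest *Gfap* value was 7.71 times the lowest in *P301S* mice and 1.68 times in Ntg mice. Its r values therefore rest mostly on the *P301S* mice. Closest to *Gfap* among all tested genes were *Pros1* (r = 0.984), *Msn* (0.980), *Mgst1* (0.970), *Cybb* (0.969) and *C4b* (0.969). *Pros1* encodes protein S, *Cybb* the catalytic subunit of the phagocyte NADPH oxidase and *C4b* complement component 4. Of the members, *Vim* (0.929) and *Serpina3n* (0.927) were closest to *Gfap*, then *Aqp4* (0.877), *Osmr* (0.852) and *Lcn2* (0.841), whereas *Slc1a3* (0.544), *Aldh1l1* (0.538), *Slc1a2* (0.487) and *Cd44* (0.477) followed it less closely. Closest to *Slc1a2* were *Plcb2* (0.891), *Sox6* (0.875), *Papss2* (0.865), *Gm45552* (0.864) and *Tmem173* (0.856), and *Osmr* was the nearest member (0.771).

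In primary microglia, which the labels give as the cell type, most of these genes were barely detected. *Gfap*, *Aqp4*, *Slc1a2*, *Slc1a3*, *Osmr* and *Serpina3n* had between 0 and 33 counts in each of the 18 libraries, and *Osmr* and *Aqp4* did not pass the filter. *Vim* and *Cd44* were abundant, with 24844 to 57560 and 5857 to 9819 counts, so these cells express both genes. The comparisons ask whether tau or cytosolic DNA changes microglial expression and whether that needs *Cgas*, the gene of the DNA sensor cGAS. Here a called gene needed a log2 fold change beyond 1 as well as an adjusted p under 0.05.

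*Lcn2* rose with tau fibrils in both genotypes. It had 0.87 to 1.77 CPM with vehicle and 4.15 to 4.77 CPM with tau in *Cgas*+/+ cells, and 0.50 to 0.89 and 2.76 to 3.26 CPM in *Cgas*-/- cells. The log2 fold changes were 1.69 ± 0.25 (SE, adjusted p = 3.96e-06) and 2.13 ± 0.29 (SE, adjusted p = 1.64e-06), and their difference of 0.44 ± 0.39 (SE) did not pass (adjusted p = 0.600). With HT-DNA, *Lcn2* had 1.97 to 2.32 CPM in *Cgas*+/+ and 0.48 to 1.13 CPM in *Cgas*-/- cells, and neither differed from vehicle past the threshold (adjusted p = 0.0658 and 0.928).

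*Aldh1l1* rose with both stimuli in *Cgas*+/+ cells. Its level was 2.90 to 3.72 CPM with vehicle, 5.53 to 8.13 CPM with tau (log2 fold change 1.03 ± 0.18, SE, adjusted p = 3.12e-05) and 8.62 to 10.8 CPM with HT-DNA (1.56 ± 0.17, SE, adjusted p = 1.12e-08). The call for tau was lost without vehicle replicate 2 or 3 or tau replicate 1, where the log2 fold change ran from 0.85 to 0.97, under the minimum of 1, at adjusted p-values of 0.000389 to 0.000813. In *Cgas*-/- cells it had 0.42 to 0.61 CPM with vehicle, 0.88 to 1.19 CPM with tau (adjusted p = 0.0501) and 0.25 to 0.32 CPM with HT-DNA (adjusted p = 0.341). The response to HT-DNA differed between genotypes by -2.48 ± 0.44 (SE) on the log2 scale, *Cgas*-/- minus *Cgas*+/+ (adjusted p = 4.94e-05), and that to tau by -0.15 ± 0.38 (SE, adjusted p = 0.882). The 22 homeostatic astrocyte genes other than the members summed to 346 to 382 CPM with vehicle, 250 to 289 CPM with tau and 289 to 311 CPM with HT-DNA in *Cgas*+/+ cells. Which cells these reads came from was not tested, nor was the cause of the change in *Aldh1l1*.

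**Figure D5:**
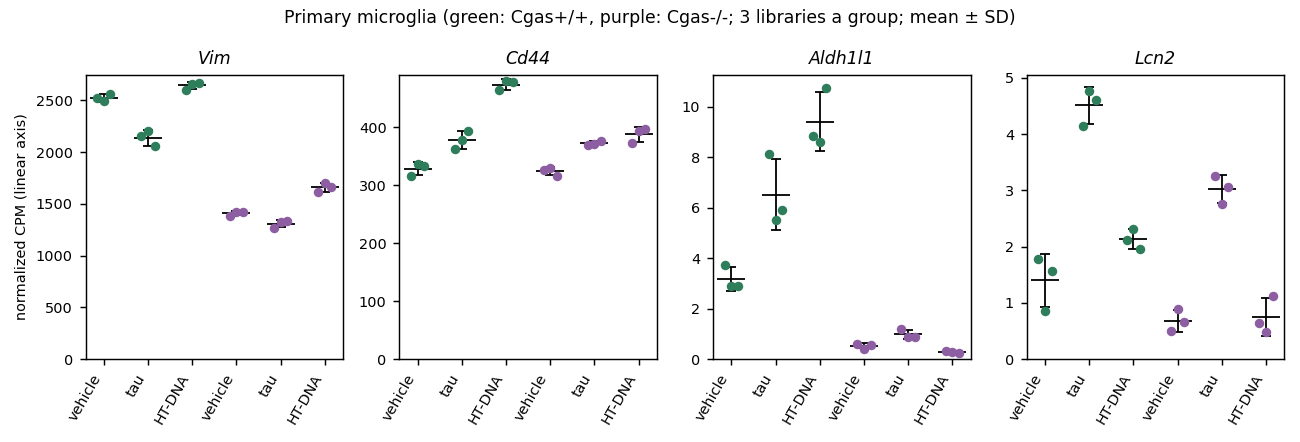
Normalized CPM (linear vertical axes from 0) of Vim, Cd44, Aldh1l1 and Lcn2 in primary microglia, with 3 libraries in each of 6 groups as points and bars for the mean ± SD, green for Cgas+/+ and purple for Cgas-/-. Lcn2 was higher with tau than with vehicle in every library of both genotypes, and Aldh1l1 with HT-DNA in Cgas+/+ libraries only.

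Changes of the abundant genes were small and precise. *Cd44* went from 328 ± 11.3 CPM (SD, n = 3) with vehicle to 474 ± 8.87 CPM (SD, n = 3) with HT-DNA in *Cgas*+/+ cells, a log2 fold change of 0.53 ± 0.04 (SE, adjusted p = 7.97e-12), and from 324 ± 6.92 to 388 ± 13.1 CPM (SD, n = 3 each) in *Cgas*-/- cells, at 0.26 ± 0.04 (SE, adjusted p = 0.000723). The difference between genotypes was -0.27 ± 0.06 (SE, adjusted p = 0.000418). With tau its log2 fold change was 0.20 in both genotypes (adjusted p = 0.000235 and 0.000465). *Vim* had a log2 fold change of -0.24 ± 0.03 (SE, adjusted p = 2.76e-06) with tau in *Cgas*+/+ and of -0.11 ± 0.03 (SE, adjusted p = 0.0264) in *Cgas*-/- cells. With HT-DNA it was 0.07 in *Cgas*+/+ (adjusted p = 0.118) and 0.23 in *Cgas*-/- cells (adjusted p = 0.000443), which differed by 0.17 ± 0.05 (SE, adjusted p = 0.00845). None of these reached the minimum fold change.

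In all, 3 of 8 tested members were called with tau in *Cgas*+/+ cells, against 3.41% of all tested genes, and 2 with HT-DNA, against 8.08%. *Slc1a2* was the third for tau, with 2 to 5 counts per vehicle library and 16 to 23 per tau library (log2 fold change 2.57 ± 0.62, SE, adjusted p = 0.0019). Among *Cgas*+/+ libraries it reached the filter's level of 0.472 CPM in 3 of 3 with tau and in 0 of 3 with vehicle or with HT-DNA. The gene was tested through these tau libraries and 6 *Cgas*-/- libraries, so the count of 3 gives no support. *Serpina3n* was the second for HT-DNA, with 14 to 18 and 23 to 33 counts and a log2 fold change of 1.00005 ± 0.39 (SE, adjusted p = 0.0366), and its call was lost without vehicle replicate 1 or 2 or HT-DNA replicate 1 or 3, which left 1. In *Cgas*-/- cells 1 member was called with tau, against 2.73%, and 0 with HT-DNA by edgeR and by DESeq2, against 0.0219%, although 4 had an unadjusted p under 0.05 there. The interaction with *Cgas* passed for 4 members with HT-DNA, *Vim*, *Cd44*, *Aldh1l1* and *Serpina3n*, against 34% of all tested genes, and for 0 with tau by both tools, against 6.91%, with 2 members at an unadjusted p under 0.05. Since *Serpina3n* passed the filter only through *Cgas*+/+ libraries, the count of 4 gives no support. The counts at an unadjusted p stand without the share of all tested genes at that p, so they show no excess.

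Genotypes already differed with vehicle, in a comparison added after the data were seen. Here 5 of 8 tested members were called, against 9.98% of all tested genes. *Aldh1l1* was lower in *Cgas*-/- cells, with a log2 difference of -2.56 ± 0.26 (SE, adjusted p = 2.4e-09), and *Lcn2* had a log2 difference of -1.02 ± 0.32 (SE, adjusted p = 0.00971), just past the minimum fold change. The *Lcn2* call was lost in 6 of the 12 alternatives, among them the fits without *Cgas*+/+ vehicle replicate 1 or 3 or *Cgas*-/- vehicle replicate 1 or 3, where it ran from -0.99 to -0.79. *Serpina3n* had 14 to 18 counts per library in *Cgas*+/+ and 0 to 3 in *Cgas*-/- cells (adjusted p = 5.85e-05), and *Gfap* 7 to 19 and 2 to 4 (adjusted p = 0.00337). Both passed the filter only through *Cgas*+/+ libraries, since 0 of the 9 *Cgas*-/- libraries reached its level for either gene, and a gene that passes in this way had to differ, so the count of 5 gives no support. *Slc1a2* was higher in *Cgas*-/- cells, with 5 to 18 against 2 to 5 counts (adjusted p = 0.0466), a call lost without any 1 of the *Cgas*+/+ vehicle libraries or without *Cgas*-/- vehicle replicate 1. *Vim*, at 2524 ± 36.8 CPM in *Cgas*+/+ and 1412 ± 22.01 CPM in *Cgas*-/- cells (SD, n = 3 each), had a log2 difference of -0.84 ± 0.03 (SE, adjusted p = 2e-17) and stayed under the minimum fold change, whereas *Cd44* had 328 and 324 CPM (adjusted p = 0.740). The count of calls fell to 3 without *Cgas*+/+ vehicle replicate 1 or 3 or *Cgas*-/- vehicle replicate 1. The summed homeostatic astrocyte genes were 346 to 382 CPM in *Cgas*+/+ and 274 to 302 CPM in *Cgas*-/- vehicle libraries. The 7 homeostatic microglial markers had 3212 to 3317 and 2052 to 2171 CPM, so the cultures differed in both. The endothelial sum was 87.5 to 98.8 CPM in *Cgas*+/+ and 20.8 to 24.9 CPM in *Cgas*-/- vehicle libraries. For mural cells and fibroblasts it was 3.29 to 5.13 and 0.52 to 1.32 CPM. The disease-associated microglial sum went the other way, at 40327 to 41559 and 46461 to 47786 CPM. The part of these differences in the member genes was not tested.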

How the data were processed

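RNA-seq counts of 13 hippocampi and 18 primary microglial libraries were analysed. The authors deposited raw counts of reads per Ensembl gene, without normalization, and the submitters' processing notes name GRCm38, edgeR and limma without versions, and the aligner and counter are not given in the sources used here. The labels name a 3′ mRNA library kit and a column kit that the paper's methods do not name for hippocampi, so the library type of the hippocampi, and whether counting used strand, is unsure. The methods also give an age of the mice for RNA-seq that differs from the labels. Gene positions came from GENCODE annotation on GRCm38, and 0 columns of the tables were left out. Counts were fitted with edgeR 4.0.16 in R 4.3.3 (filterByExpr, TMM scaling, quasi-likelihood F test), with 2 groups of mice or all 6 microglial groups in the fit, and p-values were adjusted by the Benjamini-Hochberg method over 16453 and 13675 tested genes. Genes were called at an adjusted p under 0.05 if the log2 fold change also exceeded 0.5 (hippocampi) or 1 (microglia) in size, and interactions have no minimum fold change. Counts of genes at an unadjusted p under 0.05 are given without the count over all tested genes, except for the interaction with sex. Standard errors were derived from the fold change and its F statistic. CPM were scaled with TMM. The members and gene lists were chosen with earlier results of these data known. All members were named. From each list up to 4 called genes with the largest change were named, or the most abundant where fewer than 2 were called, and 5 genes each were named by likeness to *Gfap* and *Slc1a2*. The pan-reactive, neuroinflammatory and ischaemic lists hold textbook markers. Alternatives were DESeq2 1.42.0, RLE scaling, no filter, no minimum fold change, sex or marker means as covariates, each sex alone, a replicate block or only the compared groups in microglia, and each library left out. Replicates of a group differed by more than sampling noise, with a chi-square per degree of freedom of at least 17.2 in hippocampi and 2.32 in microglia. Same-numbered microglial libraries did not deviate together (r from -0.09 to 0.08 over 45 pairs).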

Additional observations from a re-analysis of the deposited data

Results flagged for a closer look

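Gaps between mice stood out in 3 of 20 groups of values (10 genes in Ntg and in *P301S* mice), where 1 mouse lay farther from its neighbours than Dixon's critical value allows, and chance flags about 1 in 20 groups. *Vim* was 64.1 CPM in Ntg mouse 55, the highest of its group. *Cd44* was 13.8 CPM in Ntg mouse 71, the highest of its group. *Slc1a3* was 586 CPM in *P301S* mouse 43, the lowest of its group.

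The response of microglia to HT-DNA differed between *Cgas*-/- and *Cgas*+/+ cells, by a test of the difference, for 4 genes, given as log2 differences (*Cgas*-/- minus *Cgas*+/+). The same test passed for 34% of all tested genes. *Serpina3n* passed the filter only through *Cgas*+/+ libraries, so the count of 4 gives no support. The value was 0.17 for *Vim*, -0.27 for *Cd44* and -2.48 for *Aldh1l1*. For *Serpina3n* it was -4.62 (adjusted p = 0.0262), where the 3 *Cgas*-/- HT-DNA libraries had 0 counts, so this fitted value depends on the prior count and bounds nothing.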

How the results depend on the processing

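In hippocampi, 4 members were called higher. DESeq2 called 8, *Lcn2* among them. The count was 0 with homeostatic microglial markers as a covariate, 0 with homeostatic astrocyte genes as a covariate, 2 in females only and 0 in males only. Without each mouse in turn the count was 0 to 8, and the count lower stayed 0 in every setting run. Over all genes, 217 were higher and 6 lower. The numbers were 531 and 52 with DESeq2, 123 and 3 with sex as a covariate, 21 and 0 with the microglial covariate, 7 and 0 with the astrocyte covariate, and 1 and 0 in males only. Genes lower were 15 with no filter, 20 with no minimum fold change and 453 in females only. With each mouse left out, 14 to 608 were higher and 0 to 65 lower. The sign of *Slc1a2* turned with the microglial covariate (-0.12), the astrocyte covariate (-0.023) and males only (-0.017), and without 1 mouse its log2 fold change ran from -0.0083 to 0.10. The interaction with sex passed for 0 to 1 members without 1 mouse, given without the share of all genes in those fits. *Lcn2* could be fitted in 11 of 13 such fits, since it did not pass the filter in the others.

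In microglia with the replicate block, the call of *Slc1a2* between genotypes with vehicle was lost (log2 difference 1.58, adjusted p = 0.0534), so 4 members were called, and no other call changed. With no filter, 1 member was called for HT-DNA in *Cgas*+/+ cells. With no minimum fold change, 5 were called for tau in *Cgas*+/+, 3 for tau in *Cgas*-/- and 2 for HT-DNA in *Cgas*-/- cells. In a fit of the compared groups alone, 2 were called between genotypes with vehicle. Leaving out 1 library gave 2 to 3 for tau, with *Aldh1l1* as the call lost, and 1 to 2 for HT-DNA in *Cgas*+/+ cells, 1 and 0 in *Cgas*-/- cells, 3 to 5 between genotypes, and 3 to 4 for the interaction with HT-DNA and 0 for that with tau. The counts for these settings stand without the share of all tested genes called in the same fits. They therefore show no excess or lack among the members. The causes of these shifts were not tested. The low counts of 6 members in every microglial library limit what the microglial data can show.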
